A study of Mus musculus with 24 samples.

Results

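The 39 genes described here encode enzymes of phase II conjugation in the mouse kidney, and comprise 13 UDP-glucuronosyltransferases (UGT), 19 glutathione S-transferases (GST) and 7 sulfotransferases (SULT). They were taken by name and not by measured values, although earlier results of these data were known when members and lists were chosen. A gene was included when its symbol began with Ugt1, Ugt2 or Ugt3, with Gst followed by one of the class letters a, k, m, o, p, t or z and a digit, or with Sult and a digit, and when it was typed as protein coding. This gave 39 of the 19399 genes in the table, and 1 further row carried no name although its identifier is annotated as Gstm2-ps1. The kidneys came from C57BL/6J mice 10 weeks old. Poly(A) RNA of kidney tissue was sequenced. There were 7 libraries of deprived males, from which drinking water had been removed for 9 to 11 h, 6 of watered males with free access to water, 5 of deprived females and 6 of watered females. Kidneys were collected around midnight (within 1 h), when the mice had been in their active phase for 6 h. The study asked what mild dehydration does to the kidney in each sex. Deprived female 5 is named deprived in its title but has free access in its treatment label. It was kept with the deprived females here. The labels do not state that each library is a separate mouse, so p-values measure only the spread between these libraries.

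Phase II enzymes attach a polar group to drugs, hormones, bilirubin and the products of oxidation, so that the conjugate can be carried out of the cell and excreted. UGTs, in the membrane of the endoplasmic reticulum, transfer glucuronic acid or another sugar from a UDP-sugar, GSTs transfer glutathione, and SULTs transfer sulfate from the donor PAPS. In the kidney these enzymes lie mostly in the proximal tubule, whose cells also take up organic anions from the blood and secrete them into the urine. The mouse Ugt1a genes are a compact locus with alternative first exons and shared later exons, whereas the Ugt2b and Gsta genes are tandem copies.

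The 13 UGT genes lie in 3 places. In GRCm38 the Ugt1a genes run on the plus strand of chromosome 1, from the start of Ugt1a10 (chr1:88055388-88219004) through Ugt1a7c, Ugt1a6b, Ugt1a6a and Ugt1a2 (chr1:88200601-88218997) to Ugt1a1 (chr1:88211959-88218997). The Ugt2 genes are on the minus strand of chromosome 5, with Ugt2b34 (chr5:86889767-86906937), Ugt2b5 (chr5:87124960-87140318), Ugt2b37 (chr5:87240493-87254804), Ugt2a3 (chr5:87324972-87337195) and Ugt2b38 (chr5:87409942-87424203) in order of position. Ugt3a1 (chr15:9276888-9315032) and Ugt3a2 (chr15:9335550-9370955) are neighbours on chromosome 15. The widest differences between the sexes fell in 2 of these loci. For this reason the 250 bases before the RefSeq start of Ugt2b38, Ugt2b37 and Ugt2b5, all higher in males, and of Ugt1a2, far higher in females, are shown 5′ to 3′ from GRCm38.p6. Capitals in Ugt2b37 and Ugt2b5 mark bases that differ from Ugt2b38 or have no partner in it, and Ugt2b38 and Ugt1a2 are in lower case throughout. The windows are chr5:87424204-87424453 and chr5:87254789-87255038 and chr5:87140341-87140590 on the minus strand, and chr1:88200361-88200610 on the plus strand.
Ugt2b38: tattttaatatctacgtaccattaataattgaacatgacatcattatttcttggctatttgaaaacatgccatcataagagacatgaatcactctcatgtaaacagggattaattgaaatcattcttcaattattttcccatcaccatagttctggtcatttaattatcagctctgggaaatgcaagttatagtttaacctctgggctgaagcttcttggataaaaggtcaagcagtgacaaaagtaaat
Ugt2b37: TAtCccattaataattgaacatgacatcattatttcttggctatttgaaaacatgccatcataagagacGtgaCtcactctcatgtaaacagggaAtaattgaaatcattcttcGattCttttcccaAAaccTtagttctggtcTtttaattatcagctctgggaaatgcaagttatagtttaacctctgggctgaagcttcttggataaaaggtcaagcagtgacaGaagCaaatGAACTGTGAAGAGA
Ugt2b5: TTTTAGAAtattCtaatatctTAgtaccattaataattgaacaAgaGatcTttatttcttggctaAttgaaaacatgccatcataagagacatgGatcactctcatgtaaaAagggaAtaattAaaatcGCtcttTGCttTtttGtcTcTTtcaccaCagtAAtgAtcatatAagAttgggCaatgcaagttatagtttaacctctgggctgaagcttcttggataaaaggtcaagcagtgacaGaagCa
Ugt1a2: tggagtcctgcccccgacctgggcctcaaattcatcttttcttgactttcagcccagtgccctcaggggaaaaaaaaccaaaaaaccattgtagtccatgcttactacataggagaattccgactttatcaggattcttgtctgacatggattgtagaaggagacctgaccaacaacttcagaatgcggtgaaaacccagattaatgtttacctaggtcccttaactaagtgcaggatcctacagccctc
The Ugt2b37 window held 222 bases as in Ugt2b38 and 28 capitals, an identity of 88.8%, and the Ugt2b5 window held 212 and 38, an identity of 84.8%. Ugt2b37 and Ugt2b5 were 79.2% identical over the window. A set of 4 motifs were searched on both strands in the 45 promoter windows found for 35 of the 39 members. The antioxidant response core TGACNNNGC was found in 3 members (Gsta3, Gstm5 and Gstm7), and in 10.16% of the 32851 promoters of the table. The STAT motif TTCNNNGAA was found in 3 members (Gsta1, Gstm6 and Ugt1a6a), and in 7.02% of all promoters. The full androgen response palindrome and the HNF1 palindrome were each in 0 member windows and in 0.009132% of all promoters. None of these motifs lies in the 4 windows printed above.

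The libraries held 14411843 to 29398960 reads assigned to genes. Values are counts normalised by the authors for library size, and all 39 members passed the filter of at least 10 normalised counts in at least 5 libraries, Gsta1 and Sult6b1 with exactly 5. Markers of the proximal tubule, thick ascending limb, distal tubule, collecting duct and podocytes were present, and the 10 proximal tubule markers summed to 465806 to 505289 in deprived males, 444688 to 527795 in watered males, 337718 to 393590.3 in deprived females and 391397 to 428707 in watered females. Skeletal muscle markers summed to at most 20.9, and 4 of 5 adrenal cortex markers were not in the table. In 4 libraries an unnamed gene took 1.07 to 2.86% of the reads, against 0.268 to 0.85% in the other 20. These 4, deprived males 6 and 7, deprived female 1 and watered female 6, also differed from their groups in many conjugation genes, and results that rest on them are given with and without them. In bulk tissue, fewer cells of a type and less RNA per cell cannot be told apart.

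Levels between genes are compared as normalised counts per kilobase of exon. Over all 24 libraries the UGT with the highest mean level was Ugt3a2, at 8347 per kilobase. Its human counterpart transfers glucose or xylose in place of glucuronic acid. Ugt2b38 followed at 4753 and Ugt1a2 at 2428 per kilobase, or 5964 when only the exon bases annotated to Ugt1a2 alone were used as its length. Among the GSTs the mu class enzyme Gstm1 led at 5189.5 per kilobase, ahead of the alpha class Gsta2 at 3933 and Gsta4, an enzyme for 4-hydroxynonenal, at 1448. This order of the pooled means was not that of each sex. Gstm1 stood at 6196 and 5308 per kilobase in deprived and watered males, with Gsta2 at 2297 and 1821 and Gsta4 at 498 and 529. In deprived and watered females Gsta2 stood above it, at 5466 and 6676 against 4146 and 4768 for Gstm1, and Gsta4 was at 2313 and 2757. Sult1d1, which in the mouse sulfates dopamine and related amines, stood at 6777 per kilobase, far above Sult1c2 at 639 and the phenol sulfotransferase Sult1a1 at 275. The UGT and SULT families were thus carried by a few genes, whereas the GST level was spread over more of them. In deprived males Gstp1 (9.43% of the summed GST level), Gstm5 (7.88%), Gstt1 (7.63%) and Gstz1 (6.93%), among others, stood above Gsta4 (2.74%). The lowest members over all libraries were Sult6b1 at 3.44, Gsta1 at 5.51 and Ugt1a6b at 8.04 per kilobase.

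The summed level of the UGT family was 24110.5 ± 2649.9 per kilobase in deprived males and 23414 ± 2082 in watered males, against 13996 ± 845 in deprived females and 15305 ± 397 in watered females (SD, n = 7, 6, 5 and 6). Ugt3a2 made up 43.8% and 42.1% of this sum in deprived and watered males, and 41.9% and 41.7% in deprived and watered females. The rest differed in kind between the sexes. Ugt2b38 was 33.9% and 35.2% of the sum in deprived and watered males, and 4.49% and 3.63% in deprived and watered females. Ugt1a2 was 0.0801% and 0.100% in deprived and watered males, and 35.6% and 35.9% in deprived and watered females. Next to Ugt3a2, the highest level was that of Ugt2b38 in males and of Ugt1a2 in females. With exon bases annotated to it alone as its length, Ugt1a2 stood above Ugt3a2 in females, at 12286 per kilobase in deprived and 13509.8 in watered females, against 5848 and 6368 for Ugt3a2.

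The GST sum was 18546 ± 4734 per kilobase in deprived males, 16050.5 ± 689 in watered males, 19899 ± 1868 in deprived females and 23005 ± 1229.7 in watered females. The large spread in deprived males came with 2 libraries, deprived males 6 and 7, whose sums were 23120 and 27324, against 15338 to 16461 in the other 5. Gstm1 was 33.4% and 33.1% of the GST sum in deprived and watered males, and 20.9% and 20.8% in deprived and watered females. Gsta2 and Gsta4 took larger shares in females. Gsta2 was 12.1% and 11.3% in deprived and watered males and 27.4% and 28.98% in deprived and watered females. Gsta4 was 2.74% and 3.29% in deprived and watered males and 11.6% and 11.98% in deprived and watered females. Sult1d1 held 87.6% and 87.4% of the SULT sum in deprived and watered males and 87.4% and 87.3% in deprived and watered females, so this family had nearly the same make-up in all 4 groups.

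**Figure D1:**
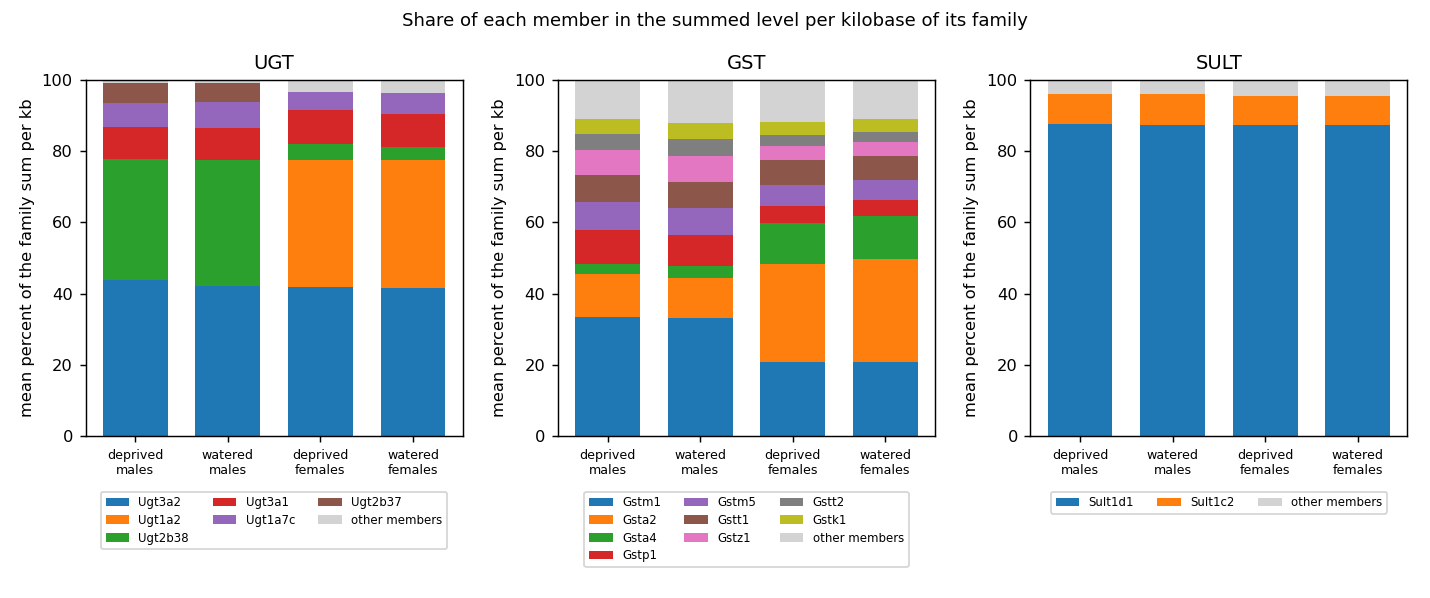
Mean share of each member in the summed level per kilobase of its family (vertical axis, percent), for UGT, GST and SULT, in deprived males, watered males, deprived females and watered females. Ugt2b38 fills about as much of the UGT bar in males (33.9% and 35.2%) as Ugt1a2 does in females (35.6% and 35.9%), while Sult1d1 takes about the same share of the SULT bar in each group.

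In watered mice, 25 of the 39 members differed between males and females, 11 higher and 14 lower in males (limma on log2 of the normalised count plus 1, Benjamini-Hochberg adjusted p below 0.05). This is 64.1% of the members, against 30.5% of the 17592 genes tested, of which 15.9% were higher and 14.5% lower in males. At least 1 log2 unit separated the sexes in 15 members (38.46%), against 4.55% of all genes, and at least 3 log2 units in 5 members, against 0.665% of all genes. The median of the members' log2 differences was -0.21, against -0.021 over all genes, and the median of their absolute sizes was 0.577, against 0.207. In 23 members the watered males and watered females did not overlap, against 22.4% of all genes. By family, all 13 UGTs were called, 8 higher and 5 lower in males. Of the 19 GSTs 10 were called, 2 higher and 8 lower, and of the 7 SULTs 2 were called, 1 in each direction.

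Deprived males and deprived females are other libraries than those compared in watered mice. Both tests nonetheless shared 1 estimate of the spread per gene from all 24 libraries, so they are not independent. The deprived comparison called 26 of the 39 members, 14 higher and 12 lower in males, against 33.1% of all genes, of which 17.5% were higher and 15.6% lower. At least 1 log2 unit separated 14 members, against 4.23% of all genes, and at least 3 log2 units 4 members, against 0.614%. The UGT count was the same, 13 of 13 with 8 higher and 5 lower. Of the GSTs 10 were called, 5 in each direction, and of the SULTs 3, 1 higher and 2 lower. The sexes did not overlap in 20 members, against 15.5% of all genes. The 21 members called in both water conditions had the same direction in both, 11 higher and 10 lower in males, which is 84% of the calls in watered mice and 80.77% of those in deprived mice. Gsta3, Gstm6, Gstm7 and Gstt1 were called in watered mice alone, and Gstm1, Gstm2, Gstp1, Gstt2 and Sult5a1 in deprived mice alone. The change of the sex difference with water removal was called for 0 members, as given with the water response. Without the 4 libraries that stand apart, 31 members were called in watered mice, against 42% of all genes, and 28 in deprived mice, against 40.8%. In deprived mice the calls of Gsta1, Gstm2, Sult1a1 and Sult5a1 passed in 16, 18, 9 and 9 of the 24 fits that each left out 1 library. The 9 members called in neither were Gstk1, Gstm4, Gstm5, Gsto2, Gstt3, Sult1c2, Sult1d1, Sult2b1 and Sult6b1.

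**Figure D2:**
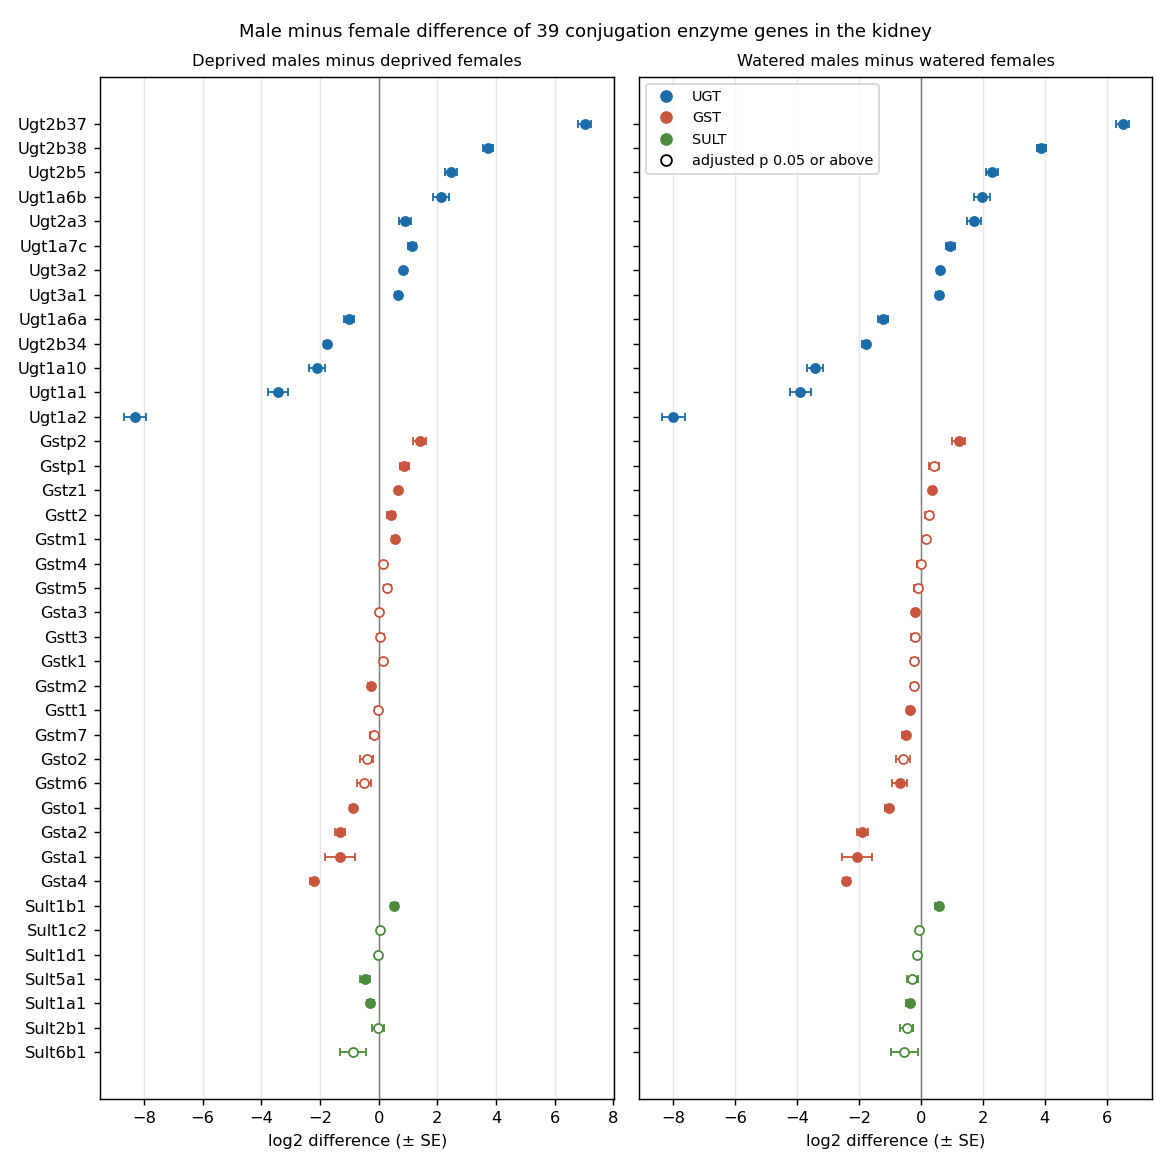
Log2 difference between males and females (horizontal axis, ± SE) of the 39 members, ordered within each family by the difference in watered mice. The left panel shows deprived and the right panel watered mice, and filled points passed adjusted p below 0.05. All 13 UGTs are filled in both panels and span from -8.00 to 6.51 in watered mice, while the SULTs lie between -0.54 and 0.57.

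The male side was led by the Ugt2b genes, whose products conjugate steroids and bile acids. Ugt2b38 had 12472 to 23621 (median 14149) normalised counts in deprived males and 11194 to 17698 (median 16124) in watered males. It had 1504, 930.4, 887, 1067 and 1532 in deprived females and 943 to 1234 (median 1017) in watered females. No male library came near a female one. Its log2 difference was 3.89 ± 0.15 (adjusted p = 9.85e-17) in watered mice (here and below ± SE) and 3.73 ± 0.15 (adjusted p = 3.31e-16) in deprived mice, and the ratio of the watered means was 14.9.

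Ugt2b37 stood lower but differed more. It had 2058 to 3242 (median 2665) normalised counts in deprived males and 1250.0 to 3184 (median 2676) in watered males, against 24.3, 23.4, 23.8, 10.6 and 18.5 in deprived females and 17.6 to 37.8 (median 26.05) in watered females. The female libraries were near the filter, and every male library was far above them. The ratio of means was 132 in deprived and 96.2 in watered mice, with log2 differences of 7.02 ± 0.21 (adjusted p = 4.04e-19) and 6.51 ± 0.21 (adjusted p = 1.24e-18).

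Ugt2b5, the third copy whose promoter is printed above, had 50.7 to 85.7 (median 70.7) normalised counts in deprived males and 54.9 to 94.6 (median 67.6) in watered males. In deprived females it had 8.97, 10.9, 7.92, 23.03 and 10.3, and in watered females 10.4 to 16.5 (median 12.8). The groups did not overlap, although all levels were low. The log2 difference was 2.30 ± 0.21 (adjusted p = 1.17e-09) in watered mice and 2.47 in deprived mice. Ugt2b5 shares 97.0% of its coding bases with Ugt2b38 and 94.7% with Ugt2b37, so reads of these copies may have been assigned to one another, and the small Ugt2b5 values are uncertain.

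Not every Ugt2 gene of the chromosome 5 cluster was higher in males. Ugt2b34 had 268 to 503 (median 412) normalised counts in deprived males and 374 to 481 (median 426) in watered males, against 1153, 1352, 1535, 1415 and 1472 in deprived females and 1355 to 1575 (median 1537) in watered females. It was thus lower in every male library, with a log2 difference of -1.79 ± 0.11 (adjusted p = 4.41e-13) in watered and -1.77 in deprived mice. Ugt2a3, between Ugt2b37 and Ugt2b38 on the chromosome, was low in all groups, at 14.7 to 27.6 (median 23.05) in deprived males, 20.8 to 36.7 (median 26) in watered males, 16.7, 8.37, 11.9, 10.6 and 10.95 in deprived females and 4.48 to 10.7 (median 7.94) in watered females. Its male level was higher, with a log2 difference of 1.71 ± 0.21 (adjusted p = 3.76e-07) in watered and 0.90 ± 0.21 (adjusted p = 0.0017) in deprived mice.

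At the Ugt1a locus neighbours went in opposite directions. Along the plus strand, Ugt1a10 was lower in males, Ugt1a7c and Ugt1a6b were higher, and Ugt1a6a, Ugt1a2 and Ugt1a1 were lower. Because the genes share every exon after the first, the deposited values depend on how reads from shared exons were counted, which is not given in the sources used here. For Ugt1a6a, 100% of its 50-base stretches also occur in a transcript annotated to Ugt1a7c. The levels at this locus are therefore uncertain as levels of single genes.

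Ugt1a2 had the widest gap of all members. It had 8.02 to 67.4 (median 52.9) normalised counts in deprived males and 28.9 to 78.2 (median 43.9) in watered males, against 8769.7, 11297, 12808, 10282 and 12131 in deprived females and 9979.7 to 12945 (median 12593) in watered females. The highest male library stood at 78.2 and the lowest female one at 8769.7. The watered male mean was 243-fold lower and the deprived male mean 272-fold lower than that of females under the same condition, with log2 differences of -8.00 ± 0.37 (adjusted p = 2.89e-14) and -8.32 ± 0.38 (adjusted p = 2.02e-14).

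Ugt1a1, the bilirubin-conjugating enzyme, was a low member with the same direction. It had 1.15 to 14.98 (median 6.67) normalised counts in deprived males, 1.73 to 8 (median 4.97) in watered males, 76.8, 76.2, 74.2, 56.6 and 82.8 in deprived females and 63.4 to 92.05 (median 78.02) in watered females. The log2 difference was -3.91 ± 0.34 (adjusted p = 7.47e-10) in watered and -3.43 in deprived mice. Ugt1a10 had 18.04 to 62.2 (median 45.8) in deprived males, 19.3 to 53.4 (median 23.8) in watered males, 149.9, 184, 276, 197 and 166 in deprived females and 215 to 478 (median 324) in watered females. Its log2 difference was -3.42 ± 0.26 in watered and -2.10 ± 0.27 in deprived mice, and the groups did not overlap. Ugt1a6a, of which the human counterpart conjugates planar phenols and serotonin, differed by -1.23 ± 0.17 in watered and -1.01 ± 0.17 in deprived mice.

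Ugt1a7c was the leading Ugt1a gene of males. It had 3972 to 7684 (median 7249) normalised counts in deprived males and 5593 to 7999 (median 7137) in watered males, against 2303, 3032, 3109, 3146 and 2789 in deprived females and 3260.4 to 3966 (median 3677) in watered females. The low end of the deprived males was made by the same deprived males 6 and 7, at 4323 and 3972, against 7222 to 7684 in the other 5. The log2 difference was 0.95 ± 0.14 (adjusted p = 6.90e-06) in watered and 1.14 ± 0.14 (adjusted p = 5.45e-07) in deprived mice. Ugt1a6b had 20.7 to 33.4 (median 28.6) in deprived males, 18 to 40.9 (median 33.1) in watered males, 2.56, 10.9, 6.93, 2.88 and 8.22 in deprived females and 5.88 to 9.90 (median 6.82) in watered females, with a log2 difference of 1.96 ± 0.26 in watered mice.

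The pair on chromosome 15 differed by less, and Ugt3a2 had the highest mean level of the family over all libraries. Ugt3a2 had 29879 to 39197 (median 31229) normalised counts in deprived males and 27713 to 32764 (median 30492) in watered males, against 19134, 16928, 18279, 18027 and 18341 in deprived females and 18600.5 to 21912 (median 19558) in watered females. The sexes did not overlap. The watered means differed 1.54-fold, with log2 differences of 0.63 ± 0.06 (adjusted p = 1.62e-08) in watered and 0.85 ± 0.07 (adjusted p = 7.12e-11) in deprived mice. Ugt3a1, of which the human counterpart transfers N-acetylglucosamine, had means of 5638 ± 617 in deprived males, 5676 ± 332 in watered males, 3590.1 ± 413 in deprived females and 3825 ± 490.1 in watered females (SD). It differed by 0.58 ± 0.09 in watered and 0.65 ± 0.09 in deprived mice. The coding bases of the pair are 93.2% identical, so the split between Ugt3a1 and Ugt3a2 is uncertain.

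**Figure D3:**
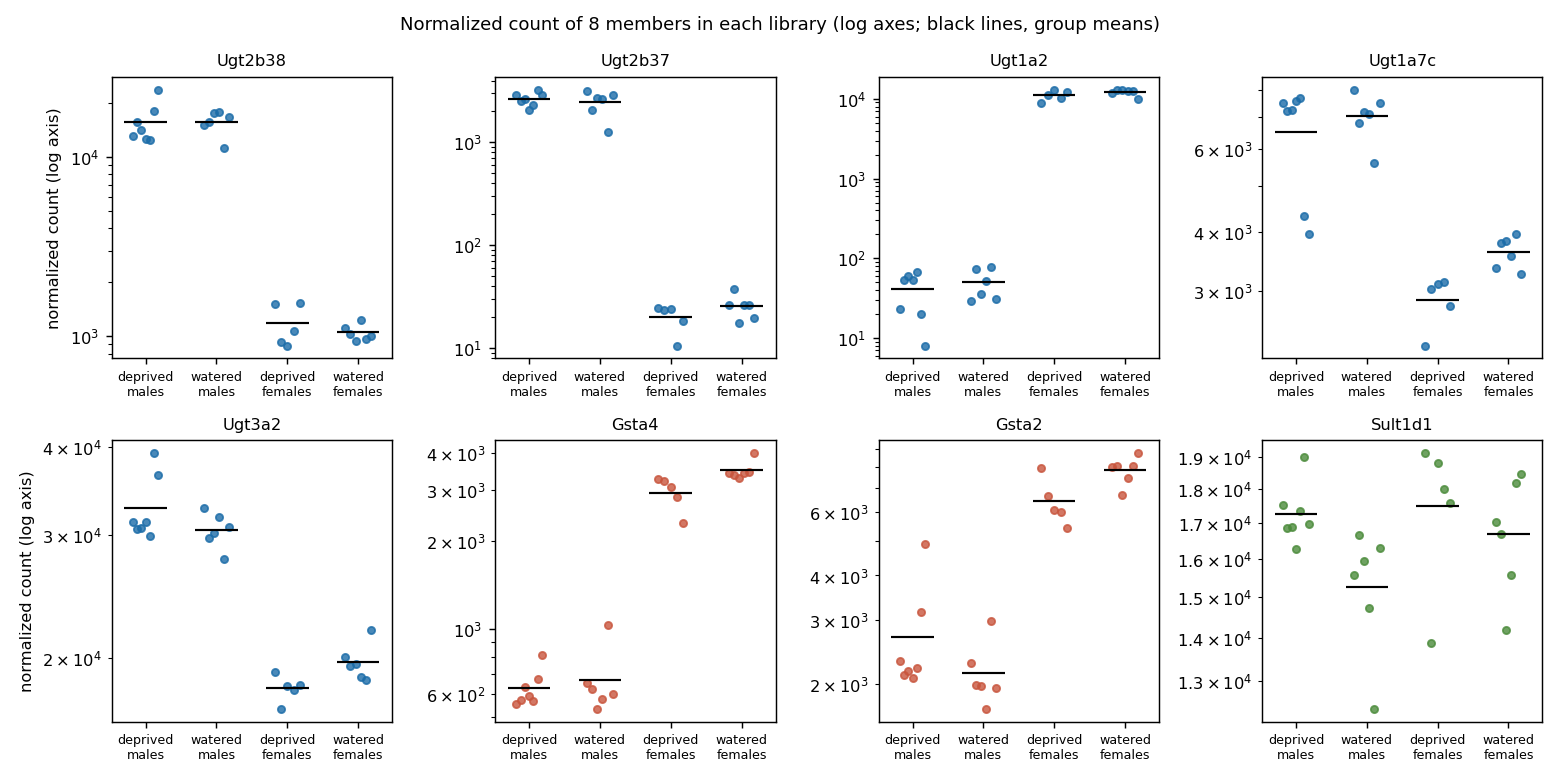
Normalised counts (vertical log axis) of Ugt2b38, Ugt2b37, Ugt1a2, Ugt1a7c, Ugt3a2, Gsta4, Gsta2 and Sult1d1 in each library of deprived males, watered males, deprived females and watered females. Points are libraries and black lines group means, and the range of the axis differs between panels. Male and female libraries do not overlap in any panel but that of Sult1d1. In the Ugt1a7c panel the lowest male value (3972, deprived male 7) lies just above the highest female one (3966, watered female 5).

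Among the GSTs the alpha class carried the largest sex differences. Gsta4 had 555 to 815 (median 589) normalised counts in deprived males and 533 to 1033 (median 613) in watered males, against 3253, 3210.1, 3052, 2826 and 2297 in deprived females and 3295 to 3994 (median 3419) in watered females. Every male library lay below every female one, and the highest male value, 1033, was that of watered male 5. The watered male mean was 5.21-fold lower, with log2 differences of -2.41 ± 0.12 (adjusted p = 1.16e-14) in watered and -2.22 ± 0.12 (adjusted p = 1.11e-13) in deprived mice.

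Gsta2 had 2069 to 4887 (median 2213) normalised counts in deprived males and 1699.6 to 2986 (median 1973) in watered males. In deprived females it had 7987, 6649, 6103, 6019 and 5409.6, and in watered females 6720.1 to 8759.8 (median 8052). The sexes again did not overlap, and the highest male library was deprived male 7. The log2 difference was -1.89 ± 0.16 (adjusted p = 8.04e-10) in watered and -1.31 ± 0.17 (adjusted p = 7.04e-07) in deprived mice. Gsta1, the near copy of Gsta2 with 97.6% of coding bases the same, was at 0 to 9.21 (median 2.29) in deprived males, 0 to 3.85 (median 2.19) in watered males, 3.84, 6.70, 10.9, 7.68 and 2.74 in deprived females and 5.88 to 15.6 (median 11.4) in watered females. Its values are near 0 in males, and 89.7% of its 50-base stretches occur in other transcripts, so its difference of -2.07 ± 0.49 (adjusted p = 0.0018) in watered mice is uncertain.

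Gsta4 (chr9:78182774-78209349), Gsta1 (chr9:78230656-78242684) and Gsta2 (chr9:78331018-78355788) are neighbours on chromosome 9 in GRCm38, and all were lower in males. Gsta3 lies apart on chromosome 1 (chr1:21240589-21265661) and codes for the mouse enzyme that detoxifies aflatoxin. It averaged 2362 ± 236 normalised counts in deprived males, 2308 ± 222 in watered males, 2331 ± 150.3 in deprived females and 2619.9 ± 110.1 in watered females, and differed by -0.19 ± 0.07 (adjusted p = 0.04) in watered mice. That call was lost when any of 8 libraries was left out, one at a time.

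The omega class Gsto1, a dehydroascorbate reductase in humans, had 633 to 933 (median 683) normalised counts in deprived males and 608 to 909 (median 680.2) in watered males, against 1501, 1443, 1349, 1336 and 1165 in deprived females and 1284 to 1665 (median 1458) in watered females. It did not overlap between the sexes, and differed by -1.05 ± 0.10 (adjusted p = 6.06e-09) in watered and -0.89 in deprived mice. Smaller deficits in watered males were called for the mu class genes Gstm6, at -0.69 ± 0.23, and Gstm7, at -0.50 ± 0.10, and for the theta class Gstt1, at -0.37 ± 0.09. In deprived mice these 3 had adjusted p of 0.099, 0.21 and 0.91. The Gstm6 call was lost without watered female 5 or watered male 3.

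In the main limma fit with all libraries, 2 of the 19 GSTs were called higher in watered males, and without the 4 libraries that stand apart Gstm1, Gstp1 and Gstt2 were too. Gstz1, the maleylacetoacetate isomerase of tyrosine breakdown, had 5433 to 8185 (median 5921) normalised counts in deprived males and 5082 to 6534 (median 5875) in watered males, against 4110.1, 3883, 4288, 3983 and 3811 in deprived females and 4277 to 4716 (median 4645) in watered females. Its log2 difference was 0.36 ± 0.08 (adjusted p = 0.0014) in watered and 0.66 ± 0.08 (adjusted p = 5.50e-07) in deprived mice. Gstp2 had 46.1 to 75.6 (median 47.7) in deprived males, 39.7 to 83.99 (median 55.3) in watered males, 16.7, 39.4, 12.9, 18.2 and 17.8 in deprived females and 18.04 to 29.9 (median 24.4) in watered females, and differed by 1.22 ± 0.21 (adjusted p = 4.88e-05) in watered mice. It shares 98.1% of its coding bases with the far more abundant pi class gene Gstp1, so it is uncertain. Gstp1 itself had a log2 difference of 0.41 ± 0.16 (adjusted p = 0.051) in watered and 0.88 ± 0.16 (adjusted p = 1.11e-04) in deprived mice. Without the 4 libraries that stand apart the difference of Gstp1 was 0.46 ± 0.04 (adjusted p = 1.01e-10) in watered and 0.64 ± 0.05 (adjusted p = 6.87e-13) in deprived mice.

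Gstm1, the GST with the highest mean level over all libraries, had 7337 to 13061 (median 8105) normalised counts in deprived males and 7412 to 8346 (median 7697) in watered males, against 6541, 5677, 6161, 6392 and 5761 in deprived females and 6899 to 7196 (median 7001) in watered females. In watered mice the difference of 0.15 ± 0.10 (adjusted p = 0.28) did not pass, although the sexes did not overlap. In deprived mice it was 0.55 ± 0.10 (adjusted p = 1.79e-04), with deprived males 6 and 7 at 11736 and 13061, against 7337 to 8171 in the other 5. Without the 4 libraries that stand apart, the difference of Gstm1 was 0.16 ± 0.04 (adjusted p = 0.0019) in watered and 0.38 ± 0.04 (adjusted p = 2.46e-08) in deprived mice. The other 7 GSTs (Gstk1, Gstm2, Gstm4, Gstm5, Gsto2, Gstt2 and Gstt3) had log2 differences of -0.59 to 0.25 in watered mice, none of them called in the main limma fit. With library weights and no library left out, Gstk1, Gstm2, Gsto2, Gstt2 and Gstt3 were called. Without the 4 libraries, 4 of them were called in watered mice, Gstk1 at -0.18 ± 0.05 (adjusted p = 0.002), Gsto2 at -0.56 ± 0.22 (adjusted p = 0.035), Gstt3 at -0.17 ± 0.06 (adjusted p = 0.017) and Gstt2 at 0.25 ± 0.06 (adjusted p = 6.29e-04).

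The SULT genes had the smallest share of calls, 2 of 7 in watered mice. Sult1d1 had 16261 to 19018 (median 16964) normalised counts in deprived males, 12404 to 16667 (median 15743) in watered males, 19130.3, 13869.5, 18830.0, 18013 and 17575 in deprived females and 14177 to 18485 (median 16849) in watered females. The groups overlapped, and the log2 difference was -0.13 ± 0.08 (adjusted p = 0.24) in watered and -0.01 ± 0.08 (adjusted p = 0.93) in deprived mice. Sult1c2 had a log2 difference of -0.08 ± 0.06 (adjusted p = 0.4) in watered mice, with means of 1112 ± 101 in watered males and 1171 ± 101 in watered females (SD).

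Sult1b1, a thyroid hormone sulfotransferase, was the 1 SULT called higher in males. It had 88.4 to 131 (median 100.1) normalised counts in deprived males, 82.1 to 116 (median 112) in watered males, 67.9, 67, 79.2, 72.9 and 80.1 in deprived females and 57.1 to 86.9 (median 66.9) in watered females. Its log2 difference was 0.57 ± 0.13 (adjusted p = 9.17e-04) in watered and 0.53 ± 0.13 (adjusted p = 0.0017) in deprived mice. Sult1a1 was called lower in males, at 336 to 482 (median 367) in deprived males, 301 to 404 (median 345) in watered males, 570.0, 375, 548, 459 and 457 in deprived females and 377 to 493.5 (median 473) in watered females, with a difference of -0.37 ± 0.11 (adjusted p = 0.0087) in watered mice. Sult1b1 (chr5:87513339-87538195) and Sult1d1 (chr5:87554645-87569027) lie near the Ugt2b genes on chromosome 5, and 1 of the pair was called. The cholesterol sulfotransferase Sult2b1, Sult5a1 and Sult6b1 were at means of at most 51.6 in any group, with log2 differences of -0.54 to -0.28 in watered mice, none of them called.

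Markers of tubule segments moved with sex too. The 10 proximal tubule markers summed higher in males, as given above, and 4 of them were called higher in watered males (Fbp1, Slc22a6, Slc27a2 and Slc34a1) and 0 lower. The other 6 were not called, with the endocytic receptors Lrp2 at -0.14 and Cubn at -0.15 log2 units, and the median of the 10 was 0.039. The sum is set mostly by the genes with the highest counts. The 6 markers of the last proximal segment, S3, summed to 44653 to 50265 in deprived males, 42213 to 51969 in watered males, 9686 to 11664 in deprived females and 10721 to 13295 in watered females, with 4 of 6 called higher and 1 lower in watered males. Thick ascending limb markers summed to 88720.0 to 117676 in deprived males, 103827 to 114200.0 in watered males, 117094 to 135113 in deprived females and 110718 to 137386 in watered females. With the balance of proximal tubule to thick ascending limb markers as a covariate, 17 members were called in watered and 19 in deprived mice. That balance was 2.3749 to 2.6941 log2 units in watered males and 2.1038 to 2.3728 in watered females. In deprived males it was 2.35 to 2.53, and in deprived females 1.80 to 2.19. The covariate thus differed between the sexes without overlap, so this fit cannot separate tubule balance from sex. The share of all genes called by sex in this fit is not given here. Whether the members lost more calls than other genes was not tested. The calls lost in watered mice were Gsta1, Gsta3, Gstm6, Gstm7, Gstt1, Sult1a1, Sult1b1 and Ugt1a7c, and in deprived mice Gsta1, Gsta2, Gstm2, Sult1a1, Sult1b1, Sult5a1 and Ugt1a7c. Liver markers summed to 1902 to 3423 in deprived males, 1142 to 2689 in watered males, 852 to 1041 in deprived females and 811 to 989.7 in watered females, of which Serpina1a (2.06) and Ttr (1.86) were higher and Alb (-0.77) and Fgb (-1.20) lower in watered males. The part of the S3, liver and podocyte markers, the last called lower in watered males in 4 of 4, in the sex differences was not tested.

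Genes that supply or follow the conjugation reactions were counted from 8 lists with 76 genes tested. In watered mice 39 were higher and 12 lower in males, with a median log2 difference of 0.228. Over all genes 15.9% were higher and 14.5% lower, with a median of -0.0214. In deprived mice 40 of the list genes were higher and 10 lower, with a median of 0.224, beside 17.5% higher, 15.6% lower and a median of -0.0163 over all genes. Of 6 genes for UDP-glucuronic acid 5 were higher and 0 lower. Among them were Ugdh, which oxidises UDP-glucose to UDP-glucuronic acid (0.42 ± 0.06, adjusted p = 2.74e-06), Ugp2, which makes UDP-glucose (0.26 ± 0.07), the UDP-sugar carrier Slc35d2 (0.88 ± 0.08) and the lysosomal glucuronidase Gusb (0.93 ± 0.06). Of 9 genes around the sulfate donor PAPS, 4 were higher and 2 lower, with the sulfate carrier Slc26a1 at 0.71 ± 0.09, the PAPS synthase Papss1 at 0.40 ± 0.06, Bpnt1 at 0.33 ± 0.04 and the sulfatase Arsa at -0.46 ± 0.07.

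Of 15 genes of glutathione synthesis and turnover 9 were higher and 2 lower in watered males. Nat8, which acetylates cysteine conjugates to mercapturic acids, differed by 1.98 ± 0.15 (adjusted p = 4.18e-11). Ggt1, which removes glutamate from glutathione conjugates, differed by 0.82 ± 0.06, Gclm, a subunit of the first enzyme of glutathione synthesis, by 0.44 ± 0.06 and Ggt6 by -0.64 ± 0.10. Of 8 other GST-like genes 1 was higher (Clic4, 0.49) and 2 were lower, the membrane-bound Mgst1 (-0.48) and Mgst3 (-0.52). The glycolipid glycosyltransferases Ugt8a and Ugcg were higher, at 3.54 and 0.60. Of 16 genes of other conjugation reactions 9 were higher and 2 lower, led by the acyl-CoA synthetase Acsm3 at 6.97 ± 0.11, with the N-methyltransferase Inmt at 2.66 ± 0.13, Acsm2 at 2.14 ± 0.07 and the epoxide hydrolase Ephx2 at 1.55 ± 0.08.

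Of 16 regulators of these families 6 were higher and 4 lower in watered males. The prolactin receptor Prlr differed by -4.09 ± 0.15 (adjusted p = 1.79e-17), the oestrogen receptor Esr1 by 1.24 ± 0.10, the growth hormone receptor Ghr by 0.36 ± 0.06 and the pregnane X receptor Nr1i2 by -0.92 ± 0.14. Of 4 tested genes known to follow the transcription factor NRF2 outside these families, 3 were higher, Hmox1 at 1.29, Nqo1 at 0.38 and Txnrd1 at 0.32.

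In the main limma fit of all 24 libraries, removal of water changed no member past the threshold. Deprived against watered females gave 0 of 39 calls, against 0.79% of all genes, and deprived against watered males 0 of 39, against 0.227%. The mean of both sexes also gave 0, against 1.64% of all genes, and the difference between the male and female responses gave 0 of 39, against 0% of all genes. At an unadjusted p under 0.05 limma had 7 members in females, 5 in males, 4 in the mean and 12 in the difference. The share of all genes at that unadjusted threshold is not given here. These counts are therefore no result about the members. Tests with edgeR and DESeq2 on the recovered reads also called 0 members in each comparison at the adjusted threshold. Without deprived male 7 alone, 1 member, Gstm4, was called in the mean. With library weights and all 24 libraries, 7 members were called in females and 2 in the mean. The weights also raised the female calls over all genes, as given below. A replicate block gave 1 member, Gstm4, in the mean. With deprived female 5 counted among the watered females, 0 members were called in any of the 4. These comparisons share libraries with the sex comparisons, the watered females and males being the baseline of both.

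The female values leaned to one side. In deprived against watered females 29 of the 39 members had a negative log2 value and 10 a positive one, and 44.9% of all genes were positive. The median was -0.145, against -0.017 over all genes. It was -0.186 in the GSTs with 18 of 19 negative, -0.144 in the UGTs with 11 of 13 negative, and 0.068 in the SULTs with 7 of 7 positive. In 3 members, Gsta4, Gstm1 and Ugt1a7c, the deprived females were all lower than the watered ones without overlap, against 2.48% of all genes. In males 23 members were positive, against 49.2% of all genes, with a median of 0.037, against -0.0037. The GST median in males was 0.115 with 14 of 19 positive, that of the SULTs 0.158 and that of the UGTs -0.038, and 0 members were without overlap, against 0.529% of all genes. The male minus female response was positive in 32 of the 39 members, against 51.6% of all genes, and in 18 of 19 GSTs, whose median was 0.268.

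The smallest p in females belonged to Ugt1a10, Ugt2a3 and Gstm4. Ugt1a10 had 149.9, 184, 276, 197 and 166 normalised counts in deprived females, against 215 to 478 (median 324) in watered females. The ranges overlapped, and the log2 value was -0.72 ± 0.28 (adjusted p = 0.32). In males its value was 0.59 ± 0.25 (adjusted p = 0.37), and the difference between the sexes of 1.31 ± 0.37 had an unadjusted p of 0.0017 and an adjusted p of 0.35. Ugt2a3 stood at 0.55 ± 0.22 (adjusted p = 0.37) and Gstm4, a mu class enzyme, at -0.28 ± 0.11 (adjusted p = 0.38) in females.

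In males the smallest p belonged to Gstt1, Sult2b1 and Sult1c2. Gstt1 had 1815 to 2765 (median 1951) normalised counts in deprived males and 1639 to 1995 (median 1811) in watered males, with a log2 value of 0.23 ± 0.09 (adjusted p = 0.32). Sult2b1 had 27.6 to 67.6 (median 44.04) in deprived males and 26.7 to 37.3 (median 32.6) in watered males, with a log2 value of 0.49 ± 0.19 (adjusted p = 0.32). Sult1c2 had 1118 to 1381 (median 1242) in deprived males and 998 to 1250.0 (median 1111) in watered males, with a log2 value of 0.16 ± 0.06 (adjusted p = 0.32). All 3 ranges overlapped. Of the genes with wide sex differences, Ugt1a2 had a log2 value of -0.14 ± 0.39 in females and -0.46 ± 0.36 in males, Ugt2b37 -0.35 ± 0.22 in females and 0.16 ± 0.20 in males, and Ugt2b38 0.14 ± 0.16 in females and -0.02 ± 0.15 in males. None of these 3 genes passed in either sex.

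The GST median of the male response and the GST calls in females depended on the 4 libraries that stand apart. The GST median in females did so little, at -0.186 with them and -0.208 without. Deprived males 6 and 7 were both above the other 5 deprived males in 15 of 19 GSTs (78.9%), against 26% of all genes, and below all of them in 0. They were both above in 4 of 13 UGTs (30.8%) and 4 of 7 SULTs (57.1%). Both were below in 3 UGTs (23.1%), Ugt1a2, Ugt1a7c and Ugt3a1, against 25.8% of all genes. The UGT shares were thus near those of all genes. Deprived female 1 was above the other 4 deprived females in 12 of 19 GSTs (63.2%), against 33.7% of all genes. It was below them in 6 of 13 UGTs (46.2%), against 35.2% of all genes. Watered female 6 was above the other 5 watered females in 8 of 19 GSTs (42.1%), against 26.5% of all genes. In the UGTs it was above them in 15.4% and below them in 23.1%, against 26.5% and 27.9% of all genes. Gstp1 had 3843 and 4922 normalised counts in deprived males 6 and 7, against 2094 to 2236 in the other 5. Deprived female 1, at 1688, and watered female 6, at 1960.2, were likewise the highest of their groups. The high GST values thus lay in deprived libraries of both sexes and in 1 watered library.

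**Figure D4:**
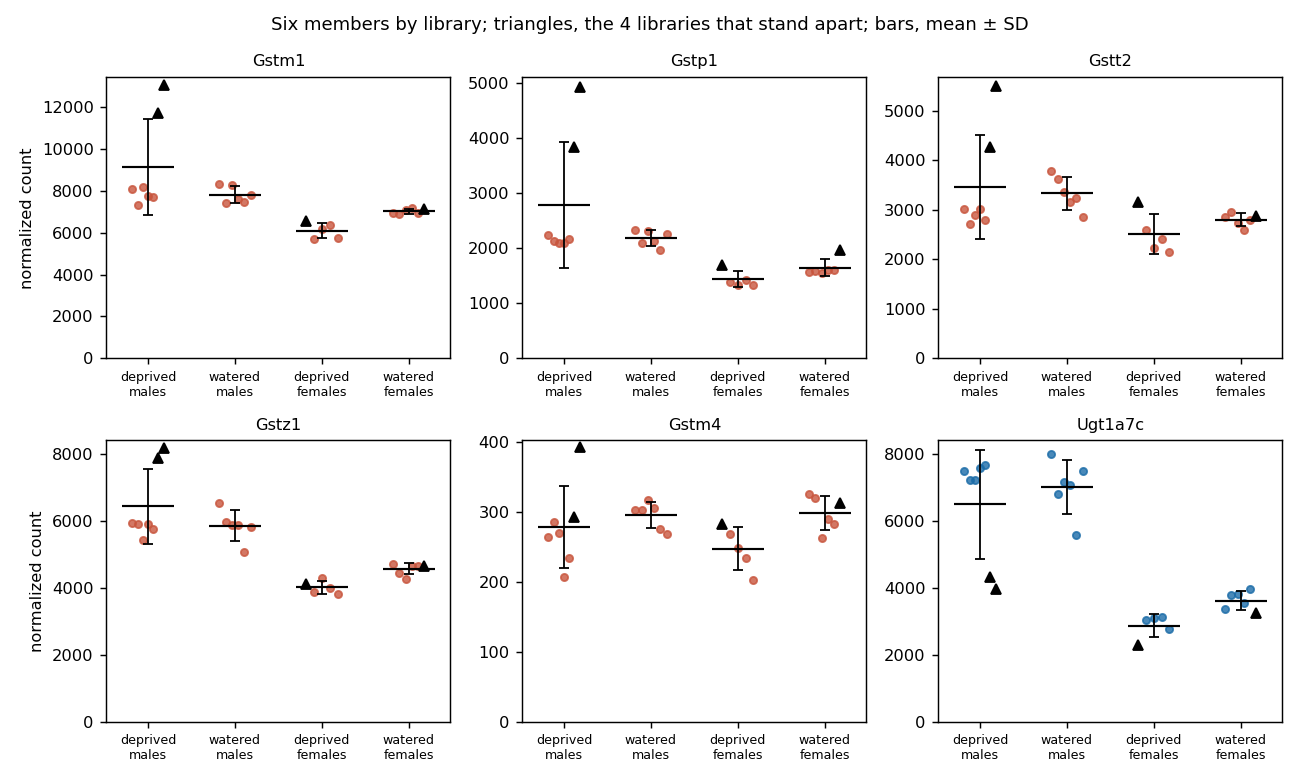
Normalised counts (vertical axis, from 0) of Gstm1, Gstp1, Gstt2, Gstz1, Gstm4 and Ugt1a7c in each library, with mean ± SD bars per group. Triangles are deprived males 6 and 7, deprived female 1 and watered female 6. Within the deprived males, the triangles are the highest points in the 5 GST panels and the lowest in the Ugt1a7c panel.

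Without these 4 libraries, 7 members fell in deprived females, against 4.21% of all genes called in either direction and 1.93% called lower. Gstm1 had the smallest adjusted p, at -0.23 ± 0.04 (adjusted p = 0.0031). Gstm1 had 5677 to 6392 normalised counts in the 4 deprived females left and 6899 to 7196 in the 5 watered ones, without overlap. The others were Gstp1 (-0.21 ± 0.05, adjusted p = 0.0077), the mitochondrial and peroxisomal Gstk1 (-0.22 ± 0.05, adjusted p = 0.011), Ugt1a7c (-0.29 ± 0.07, adjusted p = 0.016), Gstt2 (-0.25 ± 0.06, adjusted p = 0.021), Gstz1 (-0.19 ± 0.05, adjusted p = 0.03) and Gstm4 (-0.32 ± 0.09, adjusted p = 0.048). Of the 7, 6 were GSTs, and the sizes ran from -0.19 to -0.32 log2 units. Deprived female 5, which has free access in its treatment label, is among the 4 deprived females left. Of these it was the lowest for Gstk1 (920), Gstm4 (203), Gstp1 (1330), Gstt2 (2159), Gstz1 (3811) and Ugt1a7c (2789), but not for Gstm1. No fit left out or moved deprived female 5 together with the exclusion of the 4 libraries, so the dependence of these calls on it was not tested. The GST median in females was -0.208 with 18 of 19 negative, near its value with all libraries. With libraries weighted by their fit and none left out, 7 members were called in females (Gsta2, Gstk1, Gstm1, Gstm4, Gstt2, Gstz1 and Ugt1a7c) and 2 in the mean of both sexes (Gstm4 and Gstt2). The weights also raised the female calls over all genes, as given below. The share of all genes in the mean with weights is not given here.

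In males the same exclusion left 0 members called, against 0.807% of all genes, and the GST median was -0.023 with 12 of 19 negative, in place of 0.115 with all libraries. The largest male values without the 4 libraries included Ugt1a10 at 0.82 ± 0.24 (adjusted p = 0.13) and Ugt1a1 at 0.78 ± 0.28 (adjusted p = 0.21). In the mean of both sexes 5 members fell (Gstm1, Gstm4, Gstk1, Gstt2 and Gstp1), against 6.99% of all genes called and 2.93% called lower. The difference between the sexes still gave 0 calls among the members, against 0.0512% of all genes, so a response in females that is absent in males was not shown. The GST median of that difference was 0.153, with 1 of 19 negative.

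**Figure D5:**
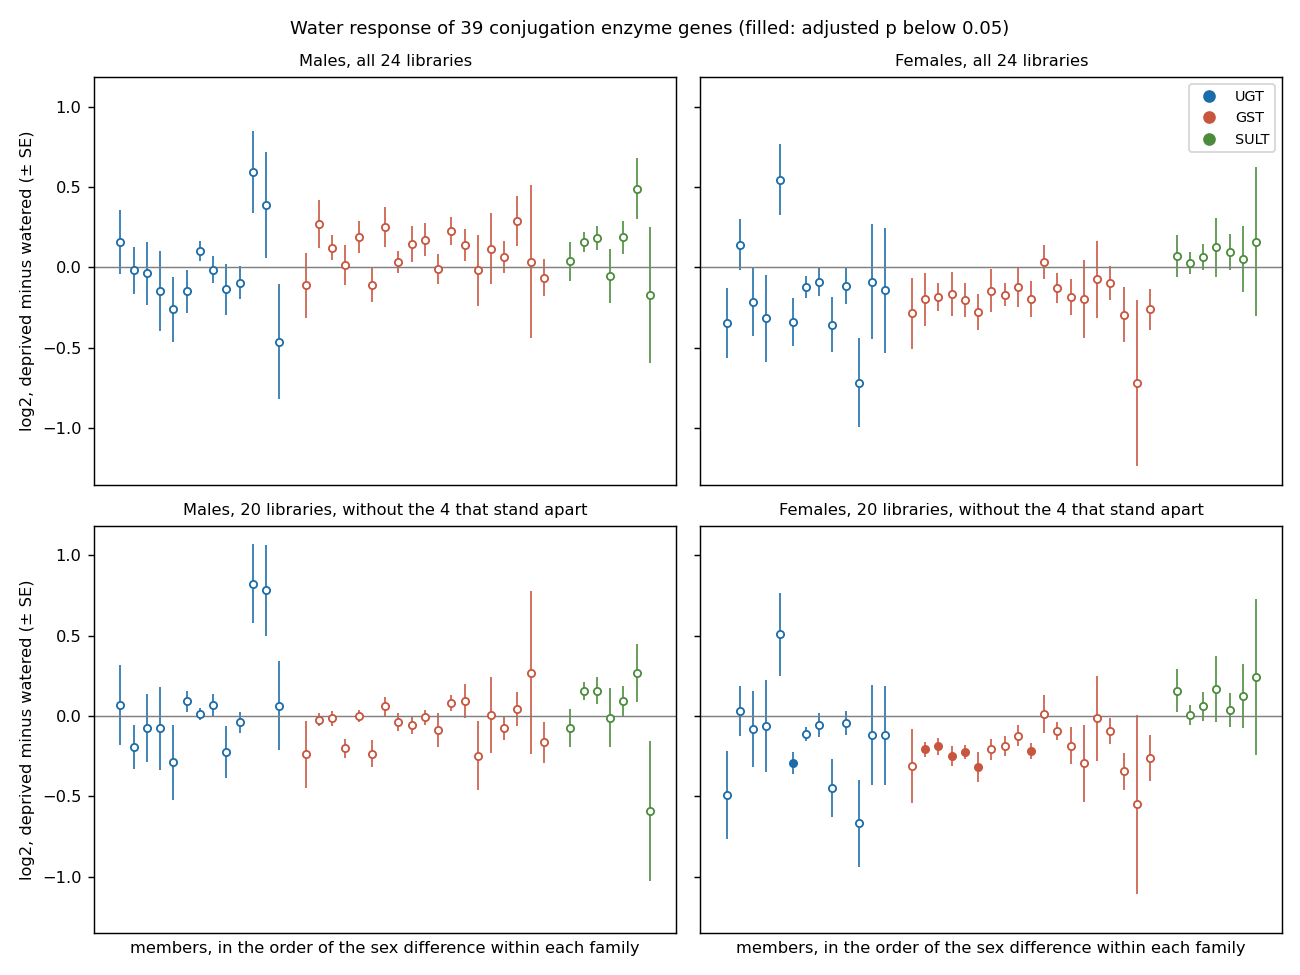
Log2 value of deprived against watered mice (vertical axis, ± SE) for the 39 members, in males (left) and females (right), with all 24 libraries (top) and without the 4 that stand apart (bottom). Filled points passed adjusted p below 0.05 and occur only in the lower right panel, where 7 are filled and all lie below 0.

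Of the 76 genes in the pathway lists, 1 passed the threshold for water in females, beside 0.79% of all genes, and 1 in males, beside 0.227%. Nqo1, an NRF2 target, was lower in deprived females, at -0.50 ± 0.10 (adjusted p = 0.015), the 1 list gene called there. Prlr was higher in deprived males, at 0.98 ± 0.14 (adjusted p = 0.001), and was the 1 list gene called in males and in the mean of both sexes (0.42 ± 0.10, adjusted p = 0.04), the last beside 1.64% of all genes. In females Prlr had -0.15 ± 0.15 (adjusted p = 0.88), and the difference between the sexes of 1.13 ± 0.21 had an adjusted p of 0.077. Proximal tubule markers summed to 337718 to 393590.3 in deprived females and 391397 to 428707 in watered females, with 1 of 10 called lower. Their part in the female values was not tested.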

How the data were processed

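Poly(A) RNA of kidney tissue was sequenced in 24 libraries. Per the submitters' processing notes, Trim Galore, featureCounts of Subread and DESeq2 were used with build mm10, without versions, the aligner, annotation release and strand setting being not given in the sources used here. The deposited values are a signal, the authors' gene counts divided by 1 size factor per library. Every value (100%) was a whole multiple of that library's step to within 0.01 read, and DESeq2 factors recomputed from these reads matched to a relative difference of 5e-08. The table holds genes with at least 100 reads in total, and reads per library were 14411843 to 29398960. Names were missing in 1695 entries.

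Values were tested as log2 of the value plus 1 with limma 3.58.1 (R 4.3.3), using trend and robust variance, 1 coefficient per group and all 24 libraries. It was adjusted by Benjamini-Hochberg over the 17592 genes with at least 10 in at least 5 libraries, at a threshold of 0.05, and was checked on simulated data. A fold change on this scale understates the change of low genes. Alternatives included edgeR 4.0.16 and DESeq2 1.42.0 on recovered reads, pseudocounts of 5 and 0.25, no filter, library weights, a replicate block, a marker covariate and left-out libraries. Members and lists were chosen with earlier results of these data known. Members given with values were those called in watered mice (up to 12 in each direction), the 3 highest levels per family, the 3 smallest p of each water response, and members called without the 4 libraries, the last chosen after their values were seen. From each list up to 4 genes with the smallest p in watered mice are named, with any gene called in a water response.

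Positions and lengths came from GENCODE M21 (GRCm38), with 19300 identifiers matched, and promoters from RefSeq (GRCm38.p6). No protein table was used, so copies were marked uncertain at 90% identity of coding bases. Two-sided tests were used throughout.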

Additional observations from a re-analysis of the deposited data

Results flagged for a closer look

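In 15 of 156 group and member combinations 1 library lay far from the rest of its group by Dixon's gap test, where chance alone flags about 1 in 20. Several were among the 4 libraries that stand apart. In watered females, library 6 was the high extreme for Gsta4 (3994 normalised counts), Gstp1 (1960.2) and Gstt1 (2664), and the low extreme for Ugt1a2 (9979.7). Deprived female 1 was the high extreme for Gstp1 (1688), and deprived male 7 for Gsta2 (4887) and Gstp2 (75.6).

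Other libraries were also extremes. Watered male 5 was the high one for Gsta4 (1033) and Gsto1 (909), both lower in males. Watered female 5 was high for Gstm6 (47.6) and Ugt1a6a (204). Deprived female 2 was high for Gstp2 (39.4) and Sult5a1 (89.6), deprived female 4 for Ugt2b5 (23.03) and deprived male 1 for Gsta1 (9.21). No sex call of Gsta4, Gsto1, Ugt1a2, Ugt1a6a or Ugt2b5 was lost without any single library. The Gstm6 call in watered mice was lost without watered female 5, and the Sult5a1 call in deprived mice without deprived female 2.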

How the results depend on the processing

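In the female response 7 members were called with library weights and 7 without the 4 libraries that stand apart, in place of 0. In the mean response the counts were 2 with library weights, 1 with the replicate block and 5 without the 4 libraries, in place of 0, and 0 to 1 when single libraries were left out, the 1 without deprived male 7. The male response and the response difference had 0 in every fit. No sex call of a member changed direction in any fit. The GST median of the male response did change sign. It was 0.11 with 14 of 19 positive in the main fit and -0.023 with 12 of 19 negative without the 4 libraries. In watered mice 17 (marker covariate) to 33 (library weights, or the groups compared alone) members differed by sex, and 23 to 29 when single libraries were left out. In deprived mice it was 19 (marker covariate) to 30 (library weights), and 22 to 26. The shares of all genes called by sex in these fits are not given here. Of the sex calls, 17 of 25 in watered and 18 of 26 in deprived mice passed in all 24 fits without 1 library and all 13 other fits. Over all genes, the 139 calls of the female response became 364 with DESeq2, 1003 with weights, 741 without the 4 libraries, 38 with the marker covariate and 2 when deprived female 5 was moved to the watered group. The male 40 became 157 with DESeq2, and the mean response 289 became 562. The cause was not tested. Replicate numbers did not pair the libraries (correlations of same-numbered deviations -0.172 to 0.167), and the block gave 31 sex calls in watered and 24 in deprived mice. Another scaling moved the median of all genes by at most 0.0051 log2 units. Depth limits Gsta1 and Sult6b1 in all groups, Ugt1a1 in males, and Ugt2a3, Ugt2b5 and Ugt1a6b in females, whose group means of 1.97 to 13.5 normalised counts lie near the filter.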

Other observations

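Watered male 5 lay nearest to the females among the 6 watered males in 13 of the 25 members that differed by sex in watered mice, and the other watered males in 1 to 4 each. Its Ugt2b37 value was 1250.0 normalised counts, against a median of 2676 in its group, its Ugt2b38 value 11194, against 16124, and its Ugt1a7c value 5593, against 7137. Its Gsta4 value was 1033, against a median of 613. It also had the lowest sums of liver markers (1142) and proximal tubule markers (444688) of the males. All its values for Ugt2b37, Ugt2b38, Ugt1a2 and Gsta4 stayed on the male side of the female range, and no test was made on a single library.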
